A study of Homo sapiens with 6 samples.

Results

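The comparison set the 4 arrays of cells carrying a hairpin against PEA15 beside the 2 arrays of cells carrying a non-silencing hairpin, and so used all 6 arrays of the series. The 4 knockdown arrays were 2 of PEA15 shRNA 1 and 2 of PEA15 shRNA 2, and each hairpin counted equally. A change was described as shared where all 4 knockdown arrays lay above, or all 4 below, both control arrays. The cells were HCT116, a human colorectal carcinoma line, and all 3 lines carried a short hairpin RNA (shRNA). That of the controls was non-silencing and is called NS shRNA in the labels. All were grown in the same serum-containing medium, and no damaging agent or other treatment is named. The labels do not say whether a line was a clone or a pool, and they number the replicates without saying that these were separate cultures. The tests thus weigh changes against the spread between these arrays alone, and that spread may be technical.

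An shRNA is cut by the cell into a small RNA that lowers the matching messenger RNA, and it can also lower other RNAs that share its seed bases. Hairpins against different stretches of a gene carry different seeds, and changes seen with both are for that reason described apart from those of a single hairpin. The PEA15 protein, a small adaptor with a death effector domain, holds the kinases ERK1 and ERK2 in the cytoplasm and binds the apoptosis adaptor FADD. The series title places the work in the DNA damage checkpoint and in transformation by oncogenes.

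Labelled RNA was captured by bead-bound probes on Illumina expression arrays. Of 47323 probes, between 19441 and 20351 (41.1% to 43%) were detected on an array, and arrays of one group correlated across rows with r = 0.995. Arrays of different hairpins correlated with r = 0.989 to 0.990, and arrays of a PEA15 hairpin and of NS shRNA with r = 0.991 to 0.994. Levels are log2 values after background correction and quantile normalization, and the test covered 15967 rows, which were 11498 genes and 4469 probes without a listed gene. The colon epithelial markers EPCAM, CDH1, KRT8, KRT18, KRT19, KRT20 and CDX2 were detected on all 6 arrays, while CDX1, VIL1 and LGR5 were detected on none and CEACAM5 on 1. The summed linear level of those 11 markers ranged from 14391 to 15291 on the knockdown arrays and from 13441 to 14309 on the NS arrays. All 4 endothelial markers were detected on no array. Of 5 leukocyte and erythroid markers, PTPRC, CD3E and HBB were detected on none, while CD14 and LYZ were detected on all 6, and their sum was 137 to 146 on the knockdown arrays and 137 to 159 on the NS arrays. Of 8 fibroblast markers 5 were detected on none and only COL1A1 on all 6, and their sum was 192 to 217 on the knockdown arrays and 200 to 217 on the NS arrays.

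PEA15 itself had log2 levels of 8.22 and 8.17 with shRNA 1, 7.71 and 7.93 with shRNA 2, and 8.97 and 9.15 with NS shRNA. All 4 knockdown arrays were below both control arrays, and the nearest knockdown and control values were 0.74 apart. Pooled over the hairpins PEA15 fell by 1.05 ± 0.10 (log2, SE, n = 4 and 2 arrays), leaving 0.484 of the NS level (0.410 to 0.573 as the 95% confidence interval, adjusted p = 0.0157 by limma). It was the largest pooled fall of all 15967 rows and the only one of 1 or more on the log2 scale, whereas 10 rows stood 1 or more above the control. The messenger RNA was 0.38 lower with shRNA 2 than with shRNA 1, a difference that did not pass the test (95% confidence interval -0.66 to -0.10, adjusted p = 0.122). The PEA15 call was lost when any 1 of the 6 arrays was left out, with pooled changes between -1.14 and -0.95.

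Few rows passed the pooled test. A total of 18 rows were higher and 7 lower at an adjusted p under 0.05, which is 0.113% and 0.0438% of the rows tested. Before adjustment, 1945 rows had a p under 0.05. Of the 25 rows past the test, 19 had all 4 knockdown arrays on one side of both control arrays, 13 of them higher and 6 lower. Without regard to the test, 1204 rows (7.54%) had all 4 knockdown arrays above both control arrays and 1387 rows (8.69%) had all 4 below. With so few arrays some rows fall in this order even where the groups do not differ. These counts are therefore not counts of changes made by the hairpins. The median pooled change over all rows was -0.00445, the median size of a change was 0.102, and it was 0.245 among rows on one side. The count past the test was 0 without any 1 of the 6 arrays, 0 when the 4 knockdown arrays were fitted as 1 group (1073 rows at an unadjusted p under 0.05 by limma), and 0 with the replicate number as a block (2036 such rows). It was 275 with quantile normalization alone and 283 with the submitters' values.

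**Figure D1:**
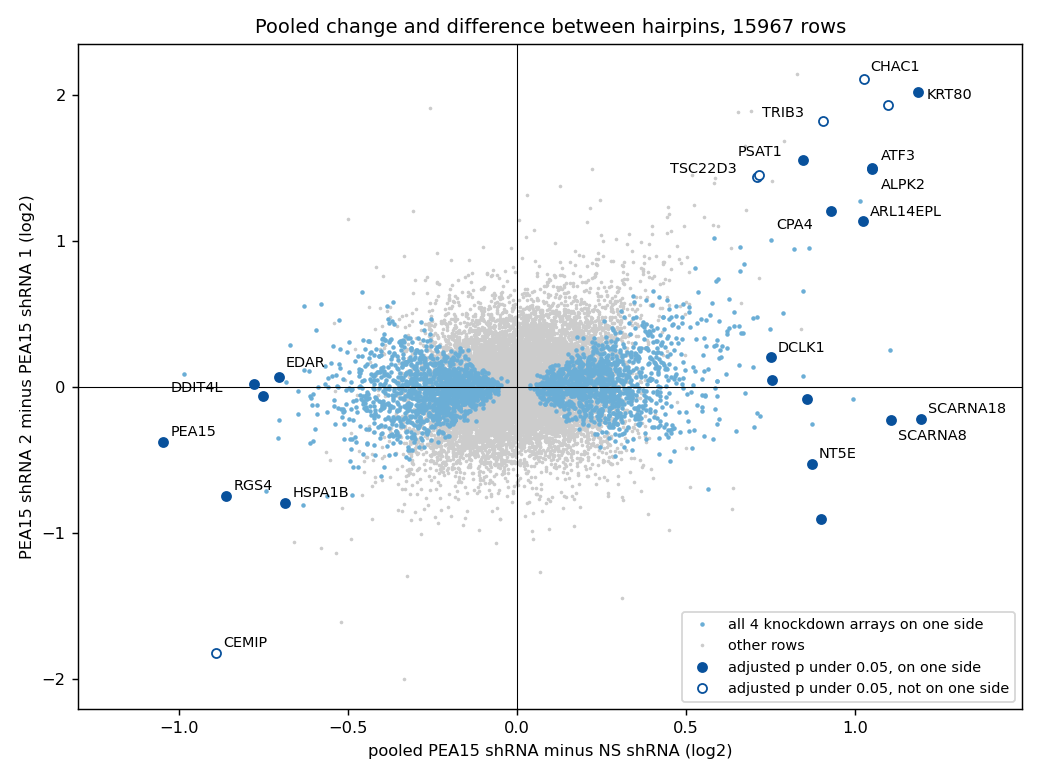
Each point is 1 of the 15967 rows, with the pooled change against NS shRNA (log2) on the horizontal axis and the difference between the hairpins (shRNA 2 minus shRNA 1, log2) on the vertical axis. Filled circles are the 19 rows past the pooled test with all 4 knockdown arrays on one side, open circles the 6 past the test that were not, and small blue points the other rows on one side. DDIT4L on the left and SCARNA18, SCARNA8 and DCLK1 on the right lie near a difference of 0, and PEA15 lies below it at -0.38. EDAR also lies near 0, but was detected with neither hairpin. KRT80, ATF3, ALPK2 and PSAT1 lie far above 0.

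Whether a pooled change had the same size with both hairpins was read from the difference between the hairpins, which uses no control array. Over all rows 530 (3.32%) differed between the hairpins at an adjusted p under 0.05. Of the 19 shared rows past the pooled test, 10 differed between hairpins and 9 did not. Those 9 were PEA15, SCARNA18, SCARNA8, DDIT4L, EDAR, DCLK1 and 3 probes without a listed gene. EDAR was detected with neither hairpin, so its hairpins could not be told apart by level. Both hairpins' comparisons use the same 2 NS arrays, so a chance deviation of those arrays enters both. The plot of the pooled change against the hairpin difference shows where each of these genes stood.

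Among the shared rises that did not differ between hairpins, SCARNA18 and SCARNA8 had the largest pooled changes. They are small Cajal body RNAs, which guide the chemical modification of spliceosomal small nuclear RNAs. Probe positions could not be examined. Whether these probes, and those of the other small RNAs below, read the mature RNAs or longer transcripts was not tested. SCARNA18 had levels of 6.11 and 6.24 with shRNA 1, 5.97 and 5.94 with shRNA 2, and 4.97 and 4.76 with NS shRNA. It was detected on all 4 knockdown arrays and on 1 of the 2 NS arrays. Its pooled rise was 1.19 ± 0.10, or 2.29-fold (95% confidence interval 1.95 to 2.68, adjusted p = 0.0126), and shRNA 2 differed from shRNA 1 by -0.22 (95% confidence interval -0.48 to 0.05, adjusted p = 0.303). SCARNA8 had levels of 6.91 and 7.0 with shRNA 1, 6.70 and 6.77 with shRNA 2, and 5.90 and 5.58 with NS shRNA. It rose by 1.10 ± 0.11, or 2.15-fold (95% confidence interval 1.80 to 2.57, adjusted p = 0.0157), with a difference of -0.23 between hairpins (-0.52 to 0.07, adjusted p = 0.339). For both RNAs the lowest knockdown array stood well above the highest control array.

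The rest of the class was taken by name, after values had been seen. Of 10 tested SCARNA genes, 6 were higher on all 4 knockdown arrays and 0 lower on all 4, beside 7.54% and 8.69% of all rows. Their median pooled change was 0.64. SCARNA16 (0.87 ± 0.19), SCARNA11 (0.70 ± 0.15), SCARNA14 (0.65 ± 0.15) and SCARNA13 (0.62 ± 0.09) lay above both control arrays on every knockdown array without passing the test (adjusted p = 0.152, 0.147, 0.169 and 0.0572). SCARNA9 (0.64) and SCARNA22 (0.31) had knockdown arrays within the control range, and SCARNA12 (0.07) and SCARNA10 (-0.02) stood close to the control. Small nucleolar RNAs outside this class, which guide the modification of ribosomal RNA, had 16 of 128 higher (12.5%) and 4 lower (3.12%), with a median of 0.03 and 0 past the test. SNORD13, a box C/D RNA needed for ribosomal RNA acetylation, was 0.72 ± 0.11 higher without passing (adjusted p = 0.0627). TERC, the RNA template of telomerase and itself of the Cajal body class, was at 6.90 and 6.49 with shRNA 1, 6.46 and 6.76 with shRNA 2, and 6.07 and 5.25 with NS shRNA. Its pooled change of 0.99 ± 0.23 did not pass (adjusted p = 0.164), and its 2 control arrays lay far apart. In the list of 14 genes that process small RNAs and hairpins, 0 were higher and 4 lower (28.6%, beside 8.69% of all rows) on all 4 knockdown arrays. None passed the test. The lower ones included the Argonaute genes AGO1 (-0.48 ± 0.16, adjusted p = 0.284 by limma) and AGO2 (-0.19 ± 0.09, adjusted p = 0.452). The list median of -0.04 turned to 0.01 without NS shRNA replicate 2.

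**Figure D2:**
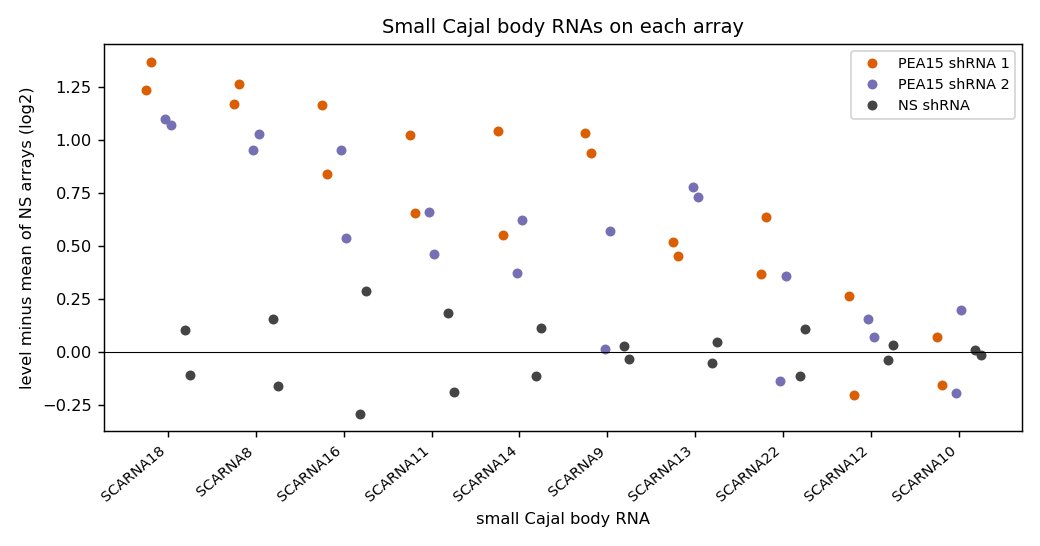
For each of the 10 tested small Cajal body RNAs, points give the level on each array minus the mean of the 2 NS arrays (log2), with PEA15 shRNA 1 on the left, PEA15 shRNA 2 in the middle and NS shRNA on the right. SCARNA18 and SCARNA8 show all 4 knockdown arrays near or above 1, and SCARNA12 and SCARNA10 lie around 0 in all groups.

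DDIT4L, which encodes an inhibitor of the mTORC1 growth kinase, stood at nearly the same lower level with both hairpins. Its levels were 9.61 and 9.72 with shRNA 1, 9.75 and 9.62 with shRNA 2, and 10.51 and 10.39 with NS shRNA. The pooled fall was 0.78 ± 0.09, leaving 0.584 of the NS level (95% confidence interval 0.502 to 0.678, adjusted p = 0.0355). The hairpins differed by 0.02 (95% confidence interval -0.23 to 0.27, adjusted p = 0.945). EDAR, the ectodysplasin receptor of the tumour necrosis factor receptor family, had values of 4.73 and 4.61 with shRNA 1, 4.76 and 4.71 with shRNA 2, and 5.35 and 5.47 with NS shRNA. It was detected on both NS arrays and on no knockdown array, so only a bound holds. It was at least 1.49-fold lower. The measured means were 4.67, 4.74 and 5.41 in the same order of groups, and limma's test of these values gave adjusted p = 0.0439. The gene entered the test through its NS arrays alone, where it was high, so this p-value does not apply to the bound.

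DCLK1, a microtubule-associated kinase used as a marker of tuft cells, was at 5.92 and 6.14 with shRNA 1, 6.25 and 6.22 with shRNA 2, and 5.36 and 5.41 with NS shRNA. It rose by 0.75 ± 0.09 (1.68-fold, adjusted p = 0.0439), and the hairpins differed by 0.20 (-0.05 to 0.46, adjusted p = 0.315). Its dimmer probe did not show this: it read 4.78 and 4.76 with shRNA 1, 5.75 and 5.22 with shRNA 2, and 5.55 and 5.64 with NS shRNA, a pooled change of -0.47 ± 0.15. Of the probes without a listed gene, ILMN_2331231 rose by 0.86 (adjusted p = 0.0191) and ILMN_2331232 by 0.76 (adjusted p = 0.0274). ILMN_2377900 fell by 0.75 (adjusted p = 0.0279). All 3 were detected on every array, and the knockdown and control arrays did not overlap.

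NT5E encodes CD73, the cell surface enzyme that makes adenosine from AMP. It was at 8.03 and 7.96 with shRNA 1, 7.50 and 7.44 with shRNA 2, and 6.87 and 6.85 with NS shRNA. All 4 knockdown arrays were higher, and the arrays with shRNA 1 were the highest. The pooled rise was 0.87 ± 0.08, or 1.83-fold (95% confidence interval 1.60 to 2.09, adjusted p = 0.0157). The rise with shRNA 2 was 0.53 smaller than that with shRNA 1 (adjusted p = 0.035). A probe without a listed gene, 0.90 higher in the pool (adjusted p = 0.0361), also stood higher with shRNA 1 than with shRNA 2, by 0.91 (adjusted p = 0.0139). These were the only 2 of the 13 shared rises that were significantly larger with shRNA 1.

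**Figure D3:**
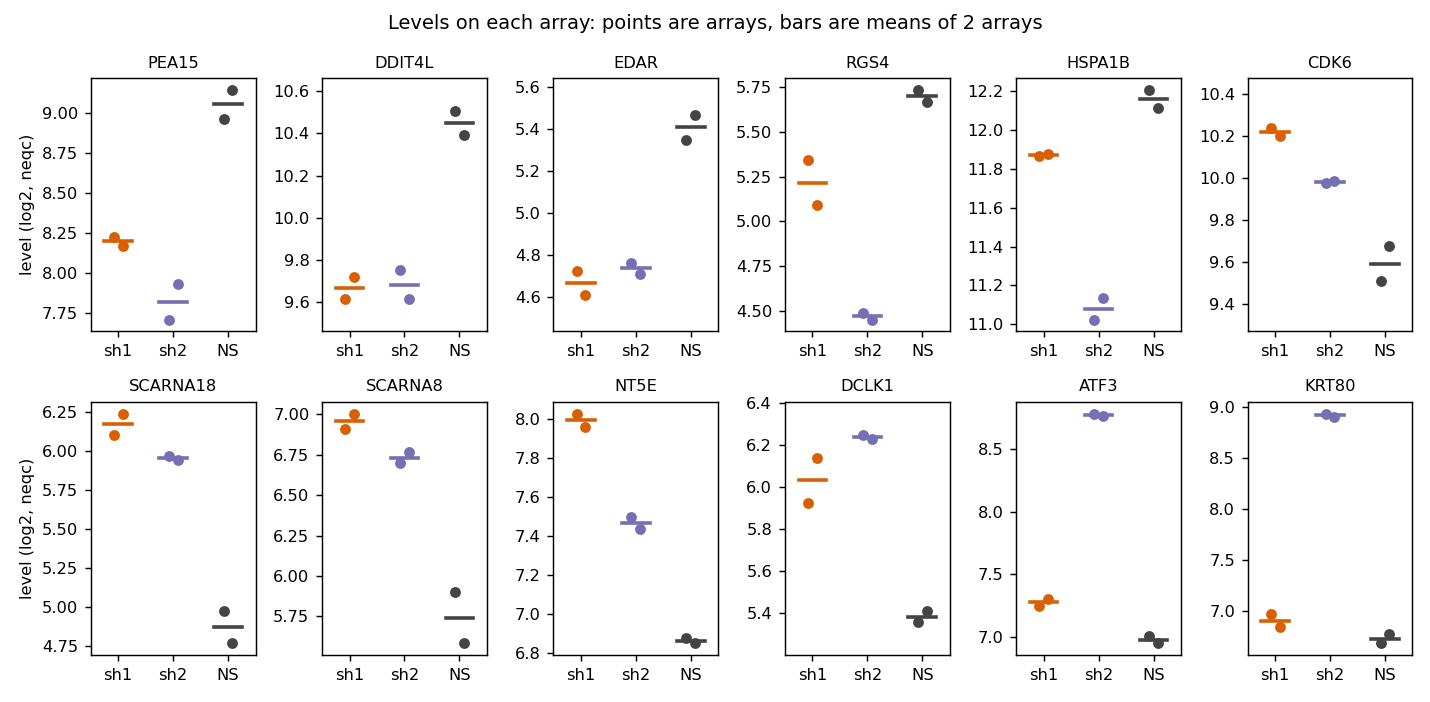
Each panel gives 1 gene, with the level (log2) on each array as points and the group mean of 2 arrays as a bar, for PEA15 shRNA 1 (sh1), PEA15 shRNA 2 (sh2) and NS shRNA (NS). In PEA15, DDIT4L and EDAR both hairpins lie below the control, whereas in ATF3 and KRT80 shRNA 1 lies just above the control and shRNA 2 far above it.

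The 6 other named genes that rose did so mainly through shRNA 2. ATF3, a stress-induced transcription factor that pairs with JUN, was at 7.24 and 7.30 with shRNA 1, 8.79 and 8.77 with shRNA 2, and 7.01 and 6.94 with NS shRNA. Its pooled rise of 1.05 ± 0.08 (adjusted p = 0.0126) averaged changes of 0.30 with shRNA 1 and 1.80 with shRNA 2, which differed by 1.5 (adjusted p = 0.000766). The epithelial keratin KRT80 was at 6.97 and 6.84 with shRNA 1, 8.94 and 8.91 with shRNA 2, and 6.68 and 6.78 with NS shRNA. Its pooled rise of 1.18 ± 0.09 (adjusted p = 0.0126) held a difference of 2.02 between hairpins, and its dimmer probe read 0.23 ± 0.16 without meeting the rule. PSAT1, an aminotransferase of serine synthesis, was at 9.46 and 9.38 with shRNA 1, 10.92 and 11.02 with shRNA 2, and 9.36 and 9.34 with NS shRNA. It met the rule narrowly, with the nearest knockdown and control arrays 0.014 apart, and its pooled rise was 0.84 ± 0.09 (adjusted p = 0.0162).

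ALPK2, of the alpha-kinase family, was at 4.78 and 4.91 with shRNA 1, 6.27 and 6.40 with shRNA 2, and 4.53 and 4.55 with NS shRNA. It was detected on neither NS array and on only 1 of the shRNA 1 arrays, and read 1.70-fold higher in the pool. Only the NS arrays were raised to the lowest detected signal, and the undetected shRNA 1 array entered at its measured value. This is therefore not a strict lower limit. ALPK2 entered the test through its shRNA 2 arrays alone, where it was high. Its adjusted p of 0.014 by limma tests the measured values and not this fold. CPA4, a secreted carboxypeptidase, was at 6.06 and 6.17 with shRNA 1, 7.36 and 7.28 with shRNA 2, and 5.78 and 5.80 with NS shRNA. It rose by 0.93 ± 0.09 (adjusted p = 0.0157). ARL14EPL was at 6.91 and 7.18 with shRNA 1, 8.19 and 8.17 with shRNA 2, and 6.54 and 6.64 with NS shRNA. It rose by 1.02 ± 0.10 (adjusted p = 0.0157). Its dimmer probe did not meet the rule, with changes of 0.16 with shRNA 1 and 1.62 with shRNA 2 and one shRNA 1 array, at 6.27, below both NS arrays at 6.35 and 6.29. On the probe tested, the shRNA 1 arrays of CPA4 and ARL14EPL lay between the control arrays and the shRNA 2 arrays. Those of ALPK2 did so in measured values only. With its NS arrays raised to the lowest detected signal, the shRNA 1 change of ALPK2 was 0.02.

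Promoter sequences of RefSeq (GRCh38.p14, 250 bases before to 50 after the start) were held for 6 of the 10 named genes that rose and 4 of the 5 that fell. They were searched on both strands for the AP-1 motif TGANTCA, the cAMP response element TGACGTCA, the C/EBP-ATF motif TGATGNAA, the E-box CACGTG and the serum response CArG box. The AP-1 motif stood in the promoters of CPA4 and DCLK1 and the C/EBP-ATF motif in those of ATF3 and ALPK2. No motif was found in the windows of the 4 genes that fell. The windows below show these matches in capitals, on the strand of the gene, because AP-1 and ATF factors bind such sites. Matches in ALPK2 read as the motif on the other strand. CPA4 and ALPK2 each hold 2 matches, of which the one further upstream is shown.
CPA4 (AP-1, chr7:130293097-130293135, plus strand): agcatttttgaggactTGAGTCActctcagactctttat
DCLK1 (AP-1, chr13:36131962-36132000, minus strand): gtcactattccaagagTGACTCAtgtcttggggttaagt
ATF3 (C/EBP-ATF, chr1:212565200-212565239, plus strand): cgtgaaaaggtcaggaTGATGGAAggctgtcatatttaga
ALPK2 (C/EBP-ATF, chr18:58629157-58629196, minus strand): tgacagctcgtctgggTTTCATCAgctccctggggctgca

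Among all tested genes with a promoter in that table, 4.35% of 9221 held the AP-1 motif and 1.75% the C/EBP-ATF motif. In the whole table of 27305 promoters these shares were 7.76% and 3.67%. Of the 657 promoters of genes higher on all 4 knockdown arrays, 54 (8.22%) held the AP-1 motif. Of the 843 promoters of genes lower on all 4, 39 (4.63%) did. The C/EBP-ATF motif stood in 2.13% of the first group and 1.90% of the second, and the E-box in 11.3% and 9.49% beside 10.3% of tested genes. The cAMP response element was in 3.20% and 2.73% beside 3.33%, and the CArG box in 1.37% and 0.712% beside 1.02%. A match describes the letters only and shows no binding.

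RGS4, an accelerator of G protein inactivation, was at 5.34 and 5.09 with shRNA 1, 4.49 and 4.45 with shRNA 2, and 5.74 and 5.67 with NS shRNA. It was detected on no shRNA 2 array and was at least 1.60-fold lower in the pool (adjusted p = 0.0309 by limma for the measured values). HSPA1B, an inducible HSP70 chaperone, was at 11.87 and 11.88 with shRNA 1, 11.02 and 11.13 with shRNA 2, and 12.21 and 12.11 with NS shRNA. It fell by 0.69 ± 0.09 (adjusted p = 0.0439), and its probe may also read the near-identical HSPA1A. Both stood lower with shRNA 2 than with shRNA 1, RGS4 at least 1.31-fold (adjusted p = 0.0201) and HSPA1B by 0.79 on the log2 scale (adjusted p = 0.0103). With DDIT4L, EDAR and PEA15 they make up the 5 named genes that fell.

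The pooled test also called 6 rows that did not meet the rule, named here after their values were seen. All 6 differed between hairpins. CHAC1, a glutathione-degrading enzyme, was detected on both shRNA 2 arrays and on no other array, and entered the test through them alone. It was at least 3.13-fold higher with shRNA 2 than with NS shRNA (adjusted p = 0.000384 by limma for the measured values). The shRNA 1 change was -0.01 for the pseudokinase TRIB3, -0.01 for the glucocorticoid-induced TSC22D3 and 0.02 for the hyaluronan-degrading CEMIP. With shRNA 2 the changes of these 3 genes were 1.82, 1.43 and -1.80, so their pooled calls averaged a large change with one hairpin and a change near 0 with the other. The remaining 2 were probes without a listed gene.

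**Figure D4:**
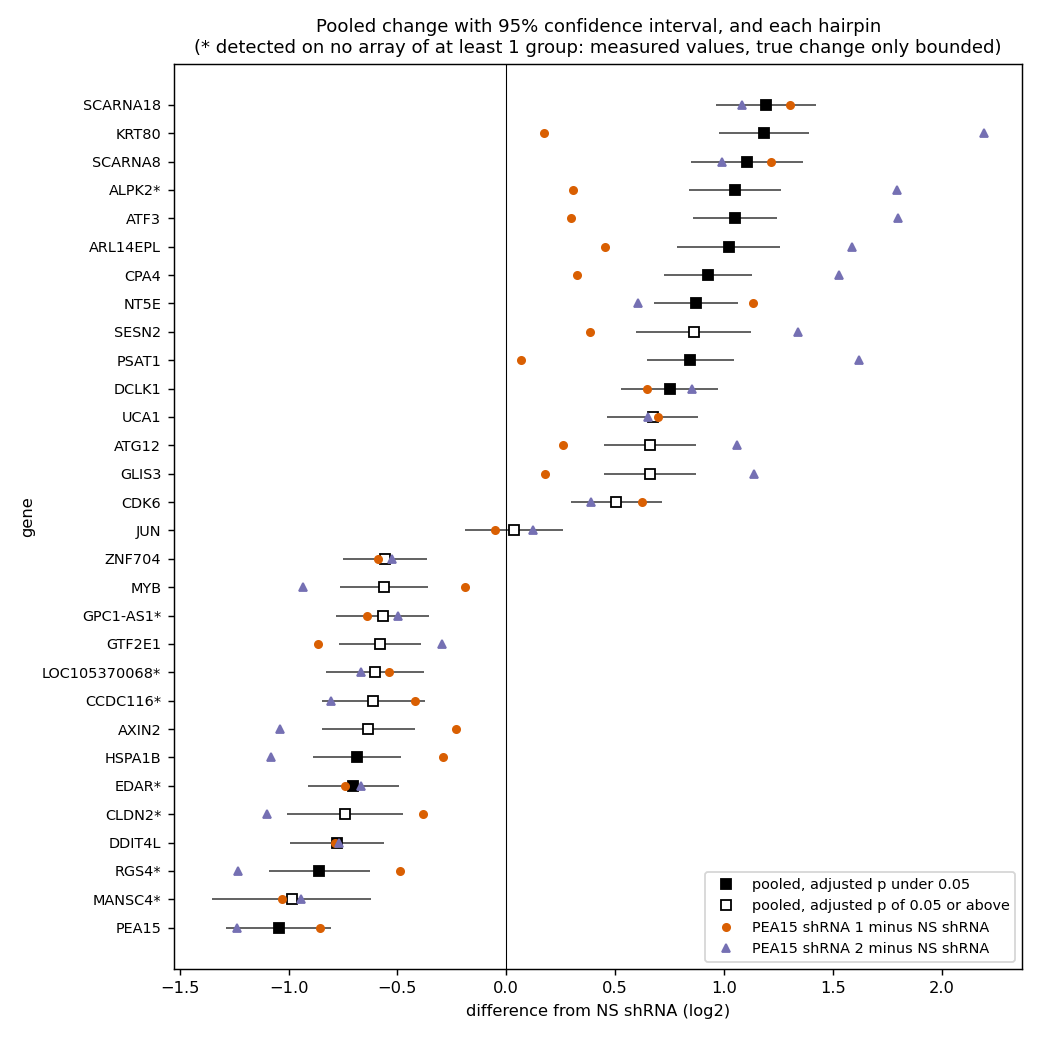
Squares give the pooled change against NS shRNA (log2) with its 95% confidence interval, filled where the adjusted p was under 0.05, and circles and triangles give shRNA 1 and shRNA 2 alone. Genes with an asterisk were detected on no array of at least 1 group and are drawn at measured values, for which at best a bound holds. For SCARNA18, SCARNA8, DCLK1, UCA1, DDIT4L, EDAR and MANSC4 both hairpins lie close to the square, and for KRT80, ALPK2, ATF3 and PSAT1 they lie far to either side of it.

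The genes next in order of p did not pass. Among the rises these were SESN2, a stress-induced leucine sensor (0.86 ± 0.11, adjusted p = 0.0525), the long noncoding RNA UCA1 (0.67 ± 0.09, adjusted p = 0.0555), the autophagy conjugation gene ATG12 (0.66 ± 0.09, adjusted p = 0.0572) and the zinc finger gene GLIS3 (0.66 ± 0.09, adjusted p = 0.0572). A dimmer ATG12 probe did not meet the rule, with changes of 0.04 with shRNA 1 and 1.01 with shRNA 2. UCA1 was at 9.75 and 9.82 with shRNA 1, 9.79 and 9.68 with shRNA 2, and 9.15 and 9.03 with NS shRNA, so its knockdown arrays were alike and all above the control. Among the falls were GTF2E1, a subunit of the general factor TFIIE (-0.58), the Wnt feedback gene AXIN2 (-0.63), the zinc finger gene ZNF704 (-0.56) and the transcription factor MYB (-0.56), with adjusted p from 0.0586 to 0.0784. ZNF704 was at 7.68 and 7.72 with shRNA 1, 7.78 and 7.74 with shRNA 2, and 8.27 and 8.31 with NS shRNA. The claudin CLDN2 was detected on neither shRNA 2 array and was at least 1.43-fold lower in the pool (adjusted p = 0.0784 by limma for the measured values). The last 4 falls were detected on both NS arrays and on 1 or 0 of the knockdown arrays. LOC105370068 was at least 1.39-fold lower and GPC1-AS1 at least 1.23-fold. MANSC4 read 1.95-fold and CCDC116 1.34-fold lower, with only the shRNA 2 arrays raised to the lowest detected signal. Their undetected shRNA 1 array entered at its measured value, so these values are not strict lower limits. None of these falls passed (adjusted p from 0.0849 to 0.0895 by limma).

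A stricter description asked that each hairpin alone also change the level by 0.5 (log2) or more. It was met by 57 rows, 32 higher and 25 lower, of which 41 were named genes, 10 passed the pooled test and 1 differed between hairpins. Of the 41 genes, 10 were detected on no array of at least 1 group, so their measured changes rest on values not above background. Examples chosen after their values were seen were TNFRSF6B, a decoy receptor of FAS ligand (0.81 with shRNA 1 and 0.88 with shRNA 2), and F3, or tissue factor (0.57 and 0.66, with 0.79 pooled at a second probe). The transcription factor KLF4 had changes of 0.52 and 1.17. On the lower side were GATA2, a transcription factor (-0.69 and -0.57), the cytosine dioxygenase TET1 (-0.67 and -0.56) and the EGF family ligand BTC, which was -0.53 with shRNA 1 and, undetected with shRNA 2, at least 1.58-fold lower there. None of these 6 passed the pooled test (adjusted p from 0.0586 to 0.22), and a second TET1 probe read 0.15 ± 0.10.

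CDK6, a G1 kinase that works with D-type cyclins, was at 10.24 and 10.20 with shRNA 1, 9.98 and 9.98 with shRNA 2, and 9.51 and 9.68 with NS shRNA. All 4 knockdown arrays were above both control arrays, yet the pooled change of 0.51 ± 0.09 (1.42-fold, 95% confidence interval 1.23 to 1.64) did not pass over all rows (adjusted p = 0.106). It passed under 5 of 15 alternative settings. JUN, which pairs with FOS proteins in the AP-1 factor, was at 7.40 and 7.43 with shRNA 1, 7.51 and 7.66 with shRNA 2, and 7.38 and 7.55 with NS shRNA. Its groups overlapped and its pooled change was 0.04 ± 0.10 (adjusted p = 0.919), with the sign turning when single arrays were left out. Of 20 AP-1 and JNK cascade genes 1, ATF3, passed. On all 4 arrays 2 were higher (10%, beside 7.54% of all rows) and 2 lower (10%, beside 8.69%). MAPK8, which encodes JNK1, was at -0.39 ± 0.15 (adjusted p = 0.347 by limma). Its dimmer probe read 0.07 ± 0.17 and did not meet the rule.

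The genes of PEA15's binding partners lay near the control. Of 16 tested, PEA15 was the 1 that passed. On the tested probes RPS6KA3, which encodes the kinase RSK2, was the only other on one side (0.24 ± 0.09, adjusted p = 0.343 by limma). Its dimmer probes read 0.21 ± 0.14 and -0.03 ± 0.12 and did not meet the rule. MAPK3, which encodes ERK1, was at -0.08 ± 0.09 and FADD at -0.11 ± 0.11, both with overlapping groups. Of 26 genes of ERK output and feedback, 0 passed and the median was 0.09. On all 4 arrays 4 were higher (15.4%, beside 7.54% of all rows) and 1 lower (3.85%, beside 8.69%). The ephrin receptor EPHA2 was 0.63 ± 0.09 higher (adjusted p = 0.0625 by limma) and the ligand TGFA 0.31 ± 0.09 higher (adjusted p = 0.228). The feedback inhibitor SPRY1 was at -0.28 ± 0.09 with a change of -0.28 with each hairpin (adjusted p = 0.292). A dimmer SPRY1 probe did not meet the rule, with changes of -0.19 with shRNA 1 and -0.40 with shRNA 2.

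In the cell cycle and checkpoint lists 0 members passed, and the shares on one side were near those of all rows, 7.54% higher and 8.69% lower. Of 27 cyclins, CDKs and regulators, 3 were higher (11.1%) and 2 lower (7.41%) on all 4 arrays. Besides CDK6 these included CDKN1A, which encodes the CDK inhibitor p21 (0.28 ± 0.10, adjusted p = 0.338), and E2F1 (-0.31 ± 0.14, adjusted p = 0.415). A second CDKN1A probe did not meet the rule: its change was 0.95 with shRNA 1 and 0.09 with shRNA 2, whose arrays at 5.31 and 5.02 overlapped the NS arrays at 5.00 and 5.15. Of 34 G1/S and DNA replication genes 1 was higher (2.94%) and 4 lower (11.8%), with a median of -0.03, and the helicase subunit gene MCM6 was at -0.24 ± 0.09 (adjusted p = 0.338). Of 36 G2/M and mitosis genes 2 were higher (5.56%) and 3 lower (8.33%), among them the kinase PLK1 (0.32 ± 0.09, adjusted p = 0.225) and the proliferation marker MKI67 (-0.29 ± 0.10, adjusted p = 0.28). Of 30 DNA damage checkpoint and repair genes 0 were higher and 2 lower (6.67%) on all 4 arrays, with a median of -0.05.

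p53 target genes lay higher more often than lower. Of 27 tested, 10 (37%, beside 7.54% of all rows) were above both control arrays on all 4 knockdown arrays and 0 below, with a median of 0.14 and 0 past the test. Of the 27, 3 differed between hairpins, SESN2 among them. Those on the higher side included SESN2, the repair gene DDB2 (0.35 ± 0.08, adjusted p = 0.161) and PMAIP1, which encodes the BH3-only protein NOXA (0.64 ± 0.20, adjusted p = 0.254). DDB2 was at 7.0 and 6.97 with shRNA 1, 6.95 and 6.91 with shRNA 2, and 6.62 and 6.58 with NS shRNA, so its shift was small but the arrays of each side lay close together. Of 27 BCL2 family and death receptor genes 4 were higher (14.8%) and 2 lower (7.41%, beside 8.69% of all rows). BID, a BH3 protein cleaved by caspase-8, was at -0.32 ± 0.08 (adjusted p = 0.188 by limma). Its dimmer probes read 0.16 ± 0.17 and -0.24 ± 0.10 and did not meet the rule.

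The mesenchymal and invasion genes that passed the detection filter, 14 of 24 on the array, also lay mostly above the control. Of 14 tested, 13 had a pooled change above 0, 7 were higher (50%, beside 7.54% of all rows) and 0 lower (beside 8.69%) on all 4 arrays, with a median of 0.20 and 0 past the test. With a detection p under 0.01 on all 6 arrays, 11 were tested and 6 were higher, with a median of 0.14. The median in the reported setting was 0.24 with shRNA 1 and 0.16 with shRNA 2. Of the 14, 3 differed between hairpins, AXL among them (0.57 higher with shRNA 2, adjusted p = 0.0471 by limma). The matricellular proteins CCN1 (0.55 ± 0.09) and CCN2 (0.61 ± 0.12), the receptor kinase AXL (0.58 ± 0.10) and the urokinase PLAU (0.51 ± 0.11) had adjusted p from 0.101 to 0.147. A dimmer CCN2 probe read 0.13 ± 0.18. Of 22 epithelial junction genes 3 were lower, CLDN2 among them, and 1 was higher, CTNND1, or p120-catenin, at 0.44 ± 0.08 (adjusted p = 0.121). Its dimmer probe read -0.11 ± 0.21.

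The amino acid response list had the most calls, and it was the list in which the hairpins differed most often. ATF4 drives such genes when amino acids are scarce. Of 27 tested, 27 had a pooled change above 0, where the median over all rows was -0.00445. The pooled test called 4 of them higher (ATF3, PSAT1, CHAC1 and TRIB3), beside 0.113% of all rows. CHAC1 entered that test through shRNA 2 alone. The number past the test was 17 with an offset of 50 and 20 with the submitters' values. Yet only 6 (22.2%, beside 7.54% of all rows) were higher on all 4 arrays, and 22 differed between hairpins, against 3.32% of all rows. The median of the list was 0.43 in the pool, -0.05 with shRNA 1 and 0.86 with shRNA 2. Cholesterol synthesis genes had 7 of 19 higher (36.8%, beside 7.54% of all rows) and 0 lower (beside 8.69%). They had a median of 0.24 and 0 past the pooled test. Their median was 0.03 with shRNA 1 and 0.35 with shRNA 2, and 6 of the 19 differed between hairpins. CYP51A1, the sterol demethylase, was at 6.26 and 6.47 with shRNA 1, 6.76 and 6.93 with shRNA 2, and 5.90 and 5.89 with NS shRNA, a change of 0.71 ± 0.10 (adjusted p = 0.0586). SREBF2, the transcription factor of sterol synthesis, was 0.33 ± 0.09 higher (adjusted p = 0.215), with changes of 0.36 with shRNA 1 and 0.30 with shRNA 2.

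Of 27 glycolysis and hypoxia genes 8 were higher (29.6%, beside 7.54% of all rows) and 1 lower (3.7%, beside 8.69%), led by the glucose transporters SLC2A3 (0.82 ± 0.13, adjusted p = 0.0849) and SLC2A1 (0.42 ± 0.09, adjusted p = 0.149). Of 18 listed replication-dependent histone genes on the array 10 passed the detection filter. Of these 10, 5 were higher and 0 lower, led by H2AC6 (0.56 ± 0.11, adjusted p = 0.137 by limma) and H2BC5 (0.37 ± 0.08, adjusted p = 0.159). H2AC6 changed by 0.59 with shRNA 1 and 0.53 with shRNA 2. Over all 21 clustered histone genes tested, 7 were higher (33.3%) and 1 lower (4.76%), with a median of 0.06. Of 16 Wnt target genes 0 were higher and 3 lower (18.8%, beside 8.69% of all rows), namely AXIN2, SOX4 (-0.60 ± 0.10, adjusted p = 0.0984) and SP5 (-0.33, adjusted p = 0.297). Their median was -0.01 with shRNA 1 and -0.24 with shRNA 2, and 6 of the 16 differed between hairpins, against 3.32% of all rows. Of 26 cytosolic ribosomal protein genes 0 were higher and 1 lower, with changes between -0.12 and 0.12.

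**Figure D5:**
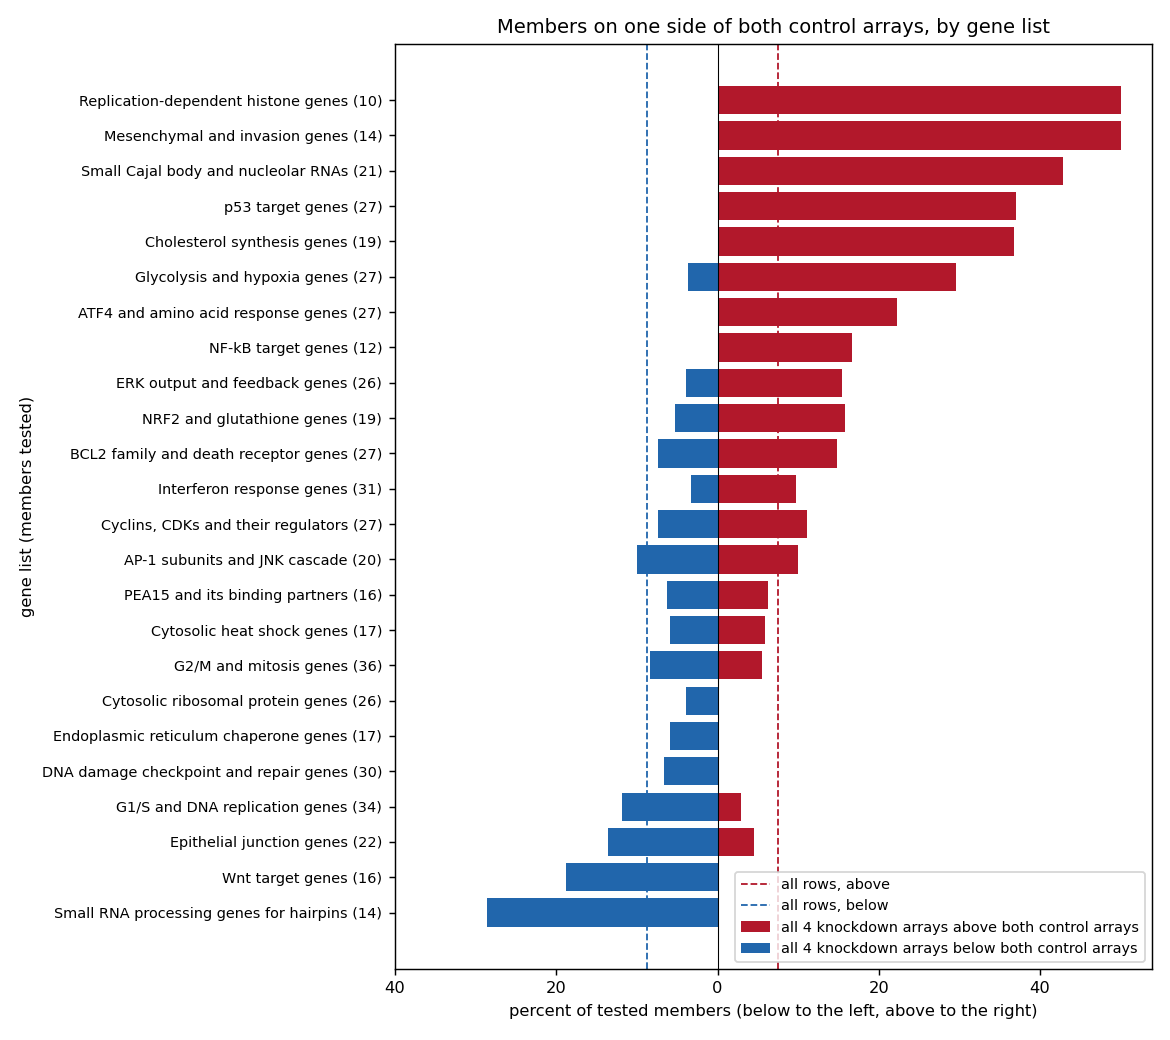
For each gene list with 10 or more tested members (number in brackets), bars to the right give the percentage of members with all 4 knockdown arrays above both control arrays and bars to the left the percentage with all 4 below. Dashed lines mark the percentages over all rows, 7.54% above and 8.69% below, and the histone, mesenchymal, small Cajal body, p53 and cholesterol lists reach furthest to the right.

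Of the remaining lists, NF-kB targets had 2 of 12 higher (16.7%) and 0 lower, beside 7.54% and 8.69% of all rows. NRF2 and glutathione genes had 3 of 19 higher (15.8%) and 1 lower (5.26%). Interferon response genes had 3 of 31 higher (9.68%) and 1 lower (3.23%). Endoplasmic reticulum chaperones had 0 of 17 higher and 1 lower (5.88%). Cytosolic heat shock genes had 1 of 17 higher (5.88%) and 1 lower (5.88%), and the lower one was HSPA1B. The chemokine CXCL8 was 0.46 ± 0.11 higher (adjusted p = 0.166) and the quinone reductase NQO1 was at -0.27 ± 0.08 (adjusted p = 0.258). Apart from HSPA1B, 0 members of these 5 lists passed the pooled test.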

How the data were processed

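Total RNA was purified with Trizol and columns and labelled as biotinylated cRNA, per the labels' protocols. For each probe on each array the deposited table gives a linear intensity, which is the mean signal of its beads. It also gives a deposited detection p-value against negative control beads. The deposited series table holds the authors' log2 values, made with lumi per the submitters' processing notes. Background method and versions are not given in the sources used here.

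Here neqc of limma 3.58.1 (R 4.3.3) subtracted background, added an offset of 16 and quantile normalized the signals, which understates changes of dim genes. A total of 19781 probes stayed, those detected (p under 0.05) on every array of some group. Gene names came from the platform annotation, in which 30113 probes had 1 symbol, 8 several and 17202 none listed. A gene's brightest kept probe over all arrays stood for it, and 3033 genes had others.

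One model with 3 group means was fitted to 6 arrays (3 residual and 4.54 prior degrees of freedom). The contrasts were the mean of both hairpins minus NS shRNA, and shRNA 2 minus shRNA 1, two-sided, adjusted by Benjamini-Hochberg over 15967 rows, threshold 0.05. A gene undetected on every array of a group was given a bound, from the lowest detected signal on those arrays or its own if higher. Its p-value tests the measured values and not the bound. The scripts were tested on simulated data. The precision is limited by 2 arrays a group, and the files used here give no chip or scan date.

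Named genes were PEA15, CDK6 and JUN; up to 14 shared rises and 14 shared falls past the test by the smaller hairpin change; the 6 largest each way; the 6 largest hairpin differences; and up to 4 list members by adjusted p. Fewer passed, so genes with the next smallest p filled the places. The members, lists and named-gene rule were chosen with earlier results of these data known, and the text says which genes were picked on their values. Alternatives were other normalizations, offset, prior, filters, probe rule, grouping, the replicate block, and each array left out.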

Additional observations from a re-analysis of the deposited data

Results flagged for a closer look

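Of 30 named genes compared between hairpins, 16 differed at an adjusted p under 0.05 by limma's contrast of shRNA 2 minus shRNA 1, on the log2 scale, with 2 arrays a group. The difference was positive, so that the pooled rise was larger with shRNA 2, for KRT80 (2.02), PSAT1 (1.55), ATF3 (1.5), ALPK2 (1.49), CPA4 (1.20), ARL14EPL (1.13), GLIS3 (0.958), SESN2 (0.955) and ATG12 (0.796). It was negative for NT5E (-0.528), whose rise was larger with shRNA 1. Among genes lower in the pool, it was negative for AXIN2 (-0.809), HSPA1B (-0.794) and MYB (-0.745), which stood lower with shRNA 2, and positive for GTF2E1 (0.566), which stood lower with shRNA 1. RGS4 and CLDN2 also stood lower with shRNA 2, but no shRNA 2 array detected them, and only the bounds of -0.387 and -0.259 hold. SESN2, ATG12, GLIS3, GTF2E1, AXIN2, CLDN2 and MYB did not pass the pooled test. Over all rows 3.32% differed between hairpins, and the cause of these differences was not tested.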

How the results depend on the processing

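The number of rows past the pooled test, 25 in the reported setting and 19 of them on one side, moved with the processing. It was 275 (195 on one side) with quantile normalization alone, 283 (202) with the submitters' values, 202 (148) with an offset of 50, 71 (56) with a detection p under 0.01, in place of 0.05, on all 6 arrays, a change of both the limit and the number of arrays, and 246 (177) with a trended prior. It was 18 (13) with no detection filter and 21 (16) with every probe tested. Of the 19 reported on one side, 18, 18, 19, 15, 19, 13 and 16 passed under these 7 settings in that order. With the 4 knockdown arrays as 1 group the count was 0 (limma, 1073 rows at an unadjusted p under 0.05), and the spread between hairpins then counts as error. With the replicate block it was 0 (0 on one side, 2036 rows at an unadjusted p under 0.05 by limma), and PEA15 stayed at -1.05 in both fits without passing. Same-numbered arrays deviated with correlations of 0.08, -0.02 and 0.05, so the levels showed no strong common effect of the replicate number. These values cannot tell whether same-numbered arrays shared a culture or day, and the labels do not say. Without any 1 of the 6 arrays the counts were 0 to 0 (1867 to 2134 rows at an unadjusted p under 0.05 by limma), and a lone array of a group is assumed to vary like the others. The PEA15 change then ranged from -1.14 to -0.95 without passing. Over all 15 alternatives its change ranged from -1.14 to -0.84 and its adjusted p from 2.2e-06 to 0.255. JUN ranged from -0.0507 to 0.122 without single arrays, turning to -0.0507 without NS shRNA replicate 1 and to -0.00355 without PEA15 shRNA 2 replicate 2, and the cause was not tested. No other named gene compared turned its sign. The list median of G2/M genes turned sign in 3 alternatives and those of AP-1, heat shock, small RNA processing and ribosomal protein genes in 1 each. Genes near background, such as EDAR and ALPK2, are limited by signal and have at best a bound.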
